A study of Mus musculus with 21 samples.

Results

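miR-296 and miR-298 are neighbouring miRNAs whose hairpins lie beside the imprinted *Gnas* locus on mouse chromosome 2. They were taken as all rows of the small-RNA-seq tables named miR-296 or miR-298, any arm, which gave 4 miRNAs (miR-296-5p, miR-296-3p, miR-298-5p, and miR-298-3p) of 1909 listed for one cohort of mice and of 1841 listed for the other. The pair was chosen by measured values, because miR-298-5p was higher in *Zeb1* mutant than in WT pituitary of the virgin cohort. Contrasts of that cohort are therefore given as a description with no test, and tests were run in the breeding trial cohort alone.

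*Gnas* encodes the stimulatory G protein subunit through which many hormone receptors, including receptors for hypothalamic releasing hormones on pituitary cells, raise cAMP. The locus makes several transcripts that come from only the maternal or only the paternal allele, among them the antisense RNA *Nespas*, and miR-296 and miR-298 have been described as paternally expressed members of this imprinted domain. Either arm of a miRNA hairpin can be loaded into an Argonaute protein, and the seed near the 5′ end of the loaded arm pairs with target mRNAs.

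The mice carried *Zeb1* alleles that resist repression by miR-200a/b. *Zeb1 200H* mice were heterozygous, *Zeb1 200M* mice were homozygous, and WT mice carried no resistant allele. All were females on a C57BL/6J background. Virgin mice were 8–12 weeks old (3 WT, 4 *Zeb1 200H*, and 4 *Zeb1 200M* libraries), and mice that had completed a breeding trial were 28–36 weeks old (4 WT, 3 *Zeb1 200H*, and 3 *Zeb1 200M* libraries). Counted reads were 3816917, 10806313, and 9029142 in virgin WT, 10266419, 9698685, 10082073, and 8551806 in *Zeb1 200H*, and 10515664, 9508346, 8502878, and 10260660 in *Zeb1 200M* libraries. In the breeding trial cohort they were 154546, 113937, 84093, and 191650 in WT, 110003, 60037, and 131324 in *Zeb1 200H*, and 87665, 124190, and 122810 in *Zeb1 200M* libraries. A floor of 3 counts therefore stood at 0.278 to 0.786 CPM (counts scaled to equal library totals) in virgin libraries and at 15.65 to 49.97 CPM in breeding trial libraries, and it covers counting error only. Both mutant genotypes of a cohort were compared with the same WT libraries. The cohorts also differed in RNA input, carrier RNA, sequencer, and the dictionary to which reads were matched, so age, breeding history, and library protocol cannot be told apart. The sample labels give other adapter sequences for each cohort, whereas the paper describes the same adapter ligation for both.

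In the genome build GRCm38, *Mir296* (ENSMUSG00000065521) spans positions 174267047 to 174267125 of chromosome 2 and *Mir298* (ENSMUSG00000065410) spans 174267504 to 174267585, both on the minus strand. The hairpins are separated by 378 bases, and 0 other annotated genes overlap them or the gap. *Nespas*, on the same strand, has its annotated 3′ end 13651 bases away, and *Gnas*, on the plus strand, begins 16734 bases away. The annotation holds 4 other miRNA genes within 5 Mb of *Mir296*. Of these, only *Mir6340* has a row of its name in the tables (miR-6340), and that row has a total of 0 counts in both cohorts.

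The mature sequences, as RefSeq gives them for GRCm38.p6, show how the 4 arms differ in the bases that choose targets. Bases 2 to 8, the seed, are in capitals.
miR-296-5p: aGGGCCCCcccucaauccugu
miR-296-3p: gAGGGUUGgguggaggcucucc
miR-298-5p: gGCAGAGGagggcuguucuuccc
miR-298-3p: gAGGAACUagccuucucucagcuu
The seeds of the 4 arms all differ, and none was shared with another of the 1679 mature miRNAs in that table. All 7 seed bases of miR-296-5p are G or C, compared with 5 of 7 for miR-298-5p, 4 of 7 for miR-296-3p, and 3 of 7 for miR-298-3p. The first 18 and the first 19 bases of each arm, the lengths used for matching reads in the 2 cohorts, also occurred in 0 other mature miRNAs of the table.

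One virgin library stood apart before any comparison. WT replicate 1 had 3816917 counted reads, whereas the other 10 virgin libraries had 8502878 to 10806313, and its TMM factor, edgeR's correction for library composition, was 0.616, compared with 0.943 to 1.12 in the others. Virgin values are therefore also given on the TMM-scaled CPM scale, and fold changes are also given without this library.

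miR-296-5p was the most abundant of the 4 arms in every group. In virgin WT mice, replicates 1, 2, and 4 had 331, 715, and 946 CPM of miR-296-5p. The 4 virgin *Zeb1 200H* libraries had 989, 1043, 1167, and 1187 CPM, and the 4 *Zeb1 200M* libraries had 984, 1215, 1181, and 1114 CPM. All mutant libraries thus lay above all WT libraries in CPM, but with TMM scaling WT replicate 4 was at 965 and lay above *Zeb1 200M* replicate 1 (924) and *Zeb1 200H* replicates 1 and 2 (952 and 960). On the TMM scale the group means were 754 ± 213 (SD, n = 3) for WT, 1039 ± 95.8 (SD, n = 4) for *Zeb1 200H*, and 1029 ± 72.2 (SD, n = 4) for *Zeb1 200M*. The fitted log2 fold change against WT was 0.45 (SE 0.20) in *Zeb1 200M* and 0.47 (SE 0.20) in *Zeb1 200H*, and without WT replicate 1 it was 0.27 (SE 0.12) and 0.28 (SE 0.11).

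The other arm of the same hairpin, miR-296-3p, was less abundant, by a factor of 5.07 to 10.7 in virgin libraries. WT replicates 1, 2, and 4 had 65.2, 109.5, and 88.7 CPM of miR-296-3p. The *Zeb1 200H* libraries had 155, 149.5, 188, and 178 CPM, and the *Zeb1 200M* libraries had 167, 199, 177, and 159 CPM. The WT group did not overlap with either mutant group, with or without TMM scaling, and the mutant groups overlapped with each other. The log2 fold change against WT was 0.62 (SE 0.15) in *Zeb1 200M* and 0.61 (SE 0.16) in *Zeb1 200H*, and without WT replicate 1 it was 0.66 (SE 0.12) and 0.63 (SE 0.13).

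miR-298-5p, the arm on which the locus was selected, had the widest separation. WT replicates 1, 2, and 4 had 80.2, 115, and 137 CPM, or 130, 122, and 139 after TMM scaling, so that for this arm WT replicate 1 lay between the other WT libraries once composition was corrected. The *Zeb1 200H* libraries had 266, 243.5, 286.5, and 288 CPM, and the *Zeb1 200M* libraries had 312, 348, 288, and 312 CPM. Every mutant library was above every WT library on both scales. Between the mutant groups, 3 of 4 *Zeb1 200M* libraries were above the highest *Zeb1 200H* library, and 1 was not. The log2 fold change against WT was 1.14 (SE 0.14) in *Zeb1 200M* and 0.98 (SE 0.14) in *Zeb1 200H*, and 1.16 (SE 0.11) and 0.98 (SE 0.11) without WT replicate 1. Between *Zeb1 200M* and *Zeb1 200H* it was 0.16 (SE 0.083), while miR-296-5p and miR-296-3p differed by -0.02 (SE 0.083) and 0.01 (SE 0.096), and miR-298-3p by -0.33 (SE 0.20).

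miR-298-3p was rare. Virgin WT replicates 1, 2, and 4 held 4, 54, and 52 counts, or 1.05, 5.00, and 5.76 CPM. *Zeb1 200H* libraries had 8.77, 5.88, 9.42, and 7.83 CPM of it, and *Zeb1 200M* libraries had 5.33, 6.31, 8.59, and 6.43 CPM. WT replicate 1 was low, and the other WT libraries lay near the low end of the mutants. With TMM scaling WT replicate 4 (5.88) was above *Zeb1 200H* replicate 2 (5.41) and *Zeb1 200M* replicates 1 and 2 (5.00 and 5.64), so WT overlapped with both mutant groups. The log2 fold change against WT was 0.37 (SE 0.34) in *Zeb1 200M* and 0.69 (SE 0.34) in *Zeb1 200H*, and 0.14 (SE 0.24) and 0.45 (SE 0.24) without WT replicate 1.

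In CPM, 3 of the 4 arms had all virgin *Zeb1 200M* libraries above all WT libraries, as did 30.5% of the 678 miRNAs that passed the expression filter, and all 4 arms had all *Zeb1 200H* libraries above WT, as did 28.4% of 672. With TMM scaling, miR-296-3p and miR-298-5p had this separation for either genotype, and miR-296-5p and miR-298-3p did not. The share of all miRNAs is not given on that scale. These contrasts were used in choosing the pair, so nothing is read from the counts.

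**Figure D1:**
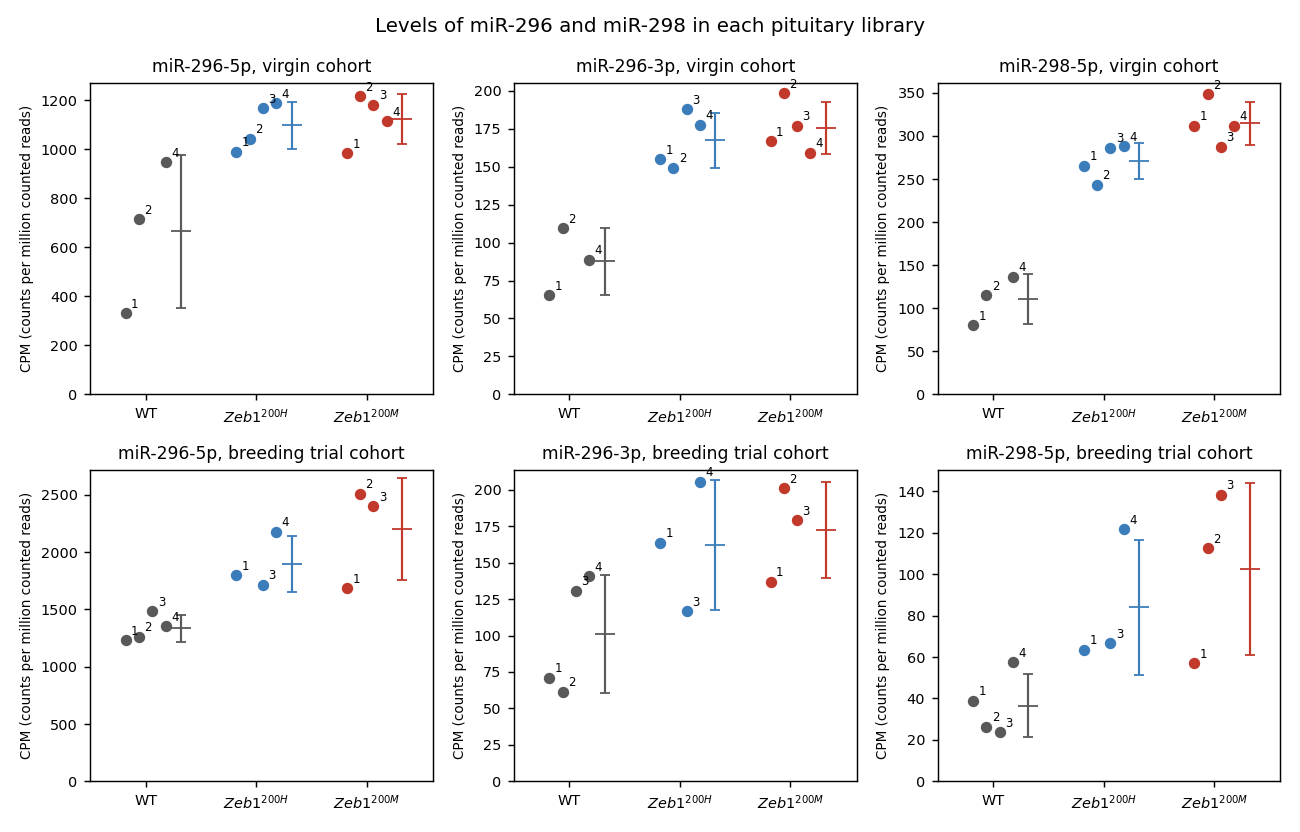
Points give CPM (y axis, linear, from 0) of miR-296-5p, miR-296-3p, and miR-298-5p in each library, numbered by replicate, for WT, *Zeb1 200H*, and *Zeb1 200M* (x axis) in the virgin (top) and breeding trial (bottom) cohorts, and bars give the mean ± SD. Virgin mutant libraries lie above all WT libraries in the 3 panels, while in the breeding trial cohort only miR-296-5p separates WT from both mutant groups.

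In the breeding trial cohort, miR-296-5p was again the main arm. WT replicates 1 to 4 had 1229, 1264, 1486, and 1357 CPM. *Zeb1 200H* replicates 1, 3, and 4 had 1800.0, 1716, and 2178 CPM, and *Zeb1 200M* replicates 1, 2, and 3 had 1688, 2512, and 2402 CPM. All 6 mutant libraries were above all 4 WT libraries in CPM. With TMM scaling, *Zeb1 200M* replicate 1 (1577) lay below WT replicate 3 (1620). Mean levels were 1334 ± 115 CPM (SD, n = 4) in WT, 1898 ± 246 (SD, n = 3) in *Zeb1 200H*, and 2201 ± 447 (SD, n = 3) in *Zeb1 200M*, which placed miR-296-5p 85th of 641, 68th of 575, and 59th of 604 detected miRNAs.

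miR-296-5p was called higher in *Zeb1 200M* than in WT, with a log2 fold change of 0.51 (SE 0.13, adjusted p = 0.00495 by edgeR's quasi-likelihood F test with Benjamini-Hochberg adjustment over all miRNAs tested, threshold 0.05), and it was higher in 3 of 3 mutant libraries in CPM. Without *Zeb1 200M* replicate 2 the log2 fold change was 0.39 and the call was lost (adjusted p = 0.0643). Only 2 of the 4 arms passed the filter on low counts in this comparison and 1 was called, beside 99 of 276 miRNAs in all (35.9%), so a call was common here. The other, miR-296-3p, needed mutant libraries to pass the filter, as given below. Without a filter 1 of the 4 arms was called, beside 13.3% of 709 miRNAs. Complete separation from WT in CPM was likewise common: 1 of the 2 arms that passed the filter had it, as did 33.3% of the miRNAs tested.

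In *Zeb1 200H* the log2 fold change of miR-296-5p against WT was 0.35 (SE 0.14), with an unadjusted p of 0.0228 and an adjusted p of 0.115 by edgeR. None of the 2 arms tested was called, compared with 32 of 267 miRNAs (12.0%). Of these 2, miR-296-3p again needed mutant libraries to pass the filter. Without a filter 0 of 4 arms were called, beside 32 of 690 miRNAs. At an unadjusted p below 0.05, 1 of the 2 arms that passed the filter was found, beside 73 of 267 miRNAs, and DESeq2 called 0 of 4, beside 25 of 690. In CPM, 1 of the 2 arms tested had all *Zeb1 200H* libraries above WT, beside 23.6% of miRNAs, and so had miR-298-5p, which was not tested and which overlapped with WT after TMM scaling. Between *Zeb1 200M* and *Zeb1 200H* miR-296-5p differed by 0.17 (SE 0.16, adjusted p = 0.686 by edgeR), and by 0.071 to 0.32 with a library left out. Here 0 of 3 arms tested were called by edgeR, beside 3 of 274 miRNAs (1.09%), and 0 of 3 had an unadjusted p below 0.05, beside 40 of 274. DESeq2 called 0 of 4 arms, beside 3 of all miRNAs it tested.

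miR-296-3p rested on few counts in the breeding trial libraries. WT replicates 1 to 4 held 11, 7, 11, and 27 counts (71.2, 61.4, 131, and 140.9 CPM), *Zeb1 200H* replicates 1, 3, and 4 held 18, 7, and 27 (164, 117, and 206 CPM), and *Zeb1 200M* replicates 1, 2, and 3 held 12, 25, and 22 (137, 201, and 179 CPM). WT replicate 4 overlapped with both mutant groups, and WT replicate 3 with *Zeb1 200H* alone in CPM, while with TMM scaling WT replicate 3 (143) was also above *Zeb1 200M* replicate 1 (128). The log2 fold change against WT was 0.54 (SE 0.31) in *Zeb1 200M* and 0.56 (SE 0.33) in *Zeb1 200H*. The filter's cutoff, 81.4 and 87.8 CPM in these comparisons, had to be reached in 3 libraries. All mutant libraries reached it, but of WT only replicates 3 and 4 did. The entry of miR-296-3p thus depended on mutant libraries, so its p in these fits is not used. Without a filter the values were 0.50 (SE 0.31, adjusted p = 0.408 by edgeR) and 0.54 (SE 0.32, adjusted p = 0.480 by edgeR), and neither passed the threshold. With the filter, the values leaned on single libraries. Without WT replicate 4 they were 0.88 in *Zeb1 200M* and 0.87 in *Zeb1 200H*, where entry again depended on mutant libraries and the p is not used. Without *Zeb1 200H* replicate 4 the value in *Zeb1 200H* was 0.34 (adjusted p = 0.659 by edgeR).

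miR-298-5p was near the floor in this cohort. WT replicates 1 to 4 held 6, 3, 2, and 11 counts, or 38.8, 26.3, 23.8, and 57.4 CPM. *Zeb1 200H* replicates 1, 3, and 4 held 7, 4, and 16 counts (63.6, 66.6, and 122 CPM), and *Zeb1 200M* replicates 1, 2, and 3 held 5, 14, and 17 (57.0, 113, and 138 CPM). Of the 6 mutant libraries, 5 were above the highest WT library, and *Zeb1 200M* replicate 1 was just below it. With TMM scaling 4 of the 6 were above WT replicate 4 (64.2), while *Zeb1 200H* replicate 1 (62.1) and *Zeb1 200M* replicate 1 (53.3) were below it. Summed over libraries, WT had 22 counts of 544226 (40.4 CPM, 95% exact Poisson interval 25.3 to 61.2), *Zeb1 200H* had 27 of 301364 (89.6 CPM, 59.0 to 130), and *Zeb1 200M* had 36 of 334665 (108 CPM, 75.3 to 149). These intervals cover counting error only.

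With so few counts, miR-298-5p did not pass the filter in the comparison of either mutant genotype with WT. Without a filter its log2 fold change in *Zeb1 200M* against WT was 1.12 (SE 0.42, adjusted p = 0.055 by edgeR), just short of the threshold, where 1 of the 4 arms was called beside 13.3% of 709 miRNAs. DESeq2 gave 1.17 (SE 0.61, adjusted p = 0.154). In 1 fit of the 3 genotypes, where 34.5% of 284 miRNAs were called, miR-298-5p passed the filter, but only because 1 *Zeb1 200H* library, 2 *Zeb1 200M* libraries, and 0 WT libraries reached its 84.5 CPM. Its entry thus depended on its being high in mutants, so its p in that fit is not used. miR-296-3p reached the cutoff in only 2 WT libraries, so its p there is not used either, and miR-296-5p was called. In *Zeb1 200H* against WT, miR-298-5p was at 0.94 (SE 0.45, adjusted p = 0.310 by edgeR) without a filter. The point estimates in *Zeb1 200M* stand beside 1.14 in the virgin cohort, and a difference between cohorts was not tested.

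A contrast of both mutant genotypes with WT was added after the data were seen. It gave a log2 fold change of 0.43 (SE 0.12, adjusted p = 0.0097 by edgeR) for miR-296-5p, which was called, as were 28.9% of 284 miRNAs. For miR-296-3p it gave 0.55 (SE 0.27). That arm reached the filter's 84.5 CPM in only 2 WT libraries, where 3 libraries were needed, so its p in this fit is not used. miR-298-5p entered this fit by mutant libraries alone. Without the filter, miR-296-3p was at 0.51 (SE 0.26, adjusted p = 0.267 by edgeR) and miR-298-5p at 1.02 (SE 0.37, adjusted p = 0.0582 by edgeR). Without the filter 1 of 4 arms was called, miR-296-5p, beside 9.29% of 743 miRNAs. The call of miR-296-5p was lost without *Zeb1 200M* replicate 2 (adjusted p = 0.0554 by edgeR). Without WT replicate 4, the log2 fold change of miR-296-3p was 0.87 (SE 0.31). Of the WT libraries then left, only replicate 3 (131 CPM) was above the 84.5 CPM of the filter on all libraries. The entry of miR-296-3p thus depended on the mutant libraries, so its p in that fit is not used.

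miR-298-3p had 1, 4, 0, and 5 counts in breeding trial WT replicates 1 to 4, 0, 0, and 3 in *Zeb1 200H*, and 2, 3, and 1 in *Zeb1 200M*. Its totals were 10 counts in WT (18.4 CPM, 95% exact Poisson interval 8.81 to 33.8), 3 in *Zeb1 200H* (9.96 CPM, 2.05 to 29.1), and 6 in *Zeb1 200M* (17.9 CPM, 6.58 to 39.0). The intervals overlap and cover counting error only. Without the filter, the log2 fold change against WT was -0.30 (SE 0.79, adjusted p = 0.874 by edgeR) in *Zeb1 200M*, -0.998 (SE 0.92, adjusted p = 0.629 by edgeR) in *Zeb1 200H*, and -0.65 (SE 0.70, adjusted p = 0.659 by edgeR) in both together, and none passed the threshold.

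Ratios within a library do not depend on how libraries are scaled, and they were taken after adding 0.5 to each count. The ratio of miR-296-5p to miR-296-3p, the arms of one hairpin, was 5.07, 6.53, and 10.7 in virgin WT replicates 1, 2, and 4. *Zeb1 200H* libraries had 6.39, 6.97, 6.21, and 6.68, and *Zeb1 200M* libraries had 5.89, 6.11, 6.66, and 6.999. WT spread around the mutants on both sides. In the breeding trial cohort it was 16.6, 19.3, 10.9, and 9.47 in WT replicates 1 to 4, 10.7, 13.8, and 10.4 in *Zeb1 200H*, and 11.9, 12.2, and 13.1 in *Zeb1 200M*. The mutant libraries again lay within the range of WT. In an exact permutation test, with the two-sided p taken as 2 times the smaller tail, mutants differed from WT by -0.17 in mean log2 ratio (p = 0.419, adjusted p = 0.667 over 8 ratio tests).

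The ratio of miR-298-5p to miR-296-5p compares the 2 hairpins. In virgin WT replicates 1, 2, and 4 it was 0.242, 0.161, and 0.144, in *Zeb1 200H* it was 0.268, 0.234, 0.245, and 0.242, and in *Zeb1 200M* it was 0.317, 0.287, 0.243, and 0.280. WT replicate 1 lay among the *Zeb1 200H* libraries, and the other WT libraries lay below all mutants. In the breeding trial cohort, WT replicates 1 to 4 had 0.0341, 0.0242, 0.0199, and 0.0442, *Zeb1 200H* had 0.0378, 0.0435, and 0.0576, and *Zeb1 200M* had 0.0370, 0.0464, and 0.0592. WT replicate 4 overlapped with the mutants, and WT replicates 1, 2, and 3 lay below them. The mean log2 ratio was higher by 0.66 in mutants than in WT (two-sided exact permutation p = 0.0476, adjusted p = 0.381 over 8 ratio tests), which does not pass the threshold after adjustment. For *Zeb1 200M* alone the difference was 0.68 (exact permutation p = 0.114) and for *Zeb1 200H* alone 0.64 (exact permutation p = 0.171), where 3 against 4 libraries cannot go below 0.0571 with the p so defined, and between the mutants it was 0.04 (exact permutation p = 0.8, smallest possible 0.1). With the p taken instead as the share of splits with an absolute difference at least as large, chosen after the data were seen, the smallest possible for 3 against 4 is 0.0286. The values for *Zeb1 200M*, *Zeb1 200H*, and all mutants against WT were then 0.114, 0.143, and 0.0381 (exact permutation p), with adjusted p of 0.381, 0.381, and 0.305.

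miR-298-5p made up 11.6% to 21.3% of the reads of the 4 arms in virgin libraries and 1.45% to 5.08% in breeding trial libraries, while miR-296-5p made up 67.0% to 80.4% and 85.8% to 91.4%. Together, the 4 arms summed to 867 CPM on average in virgin WT, 1543 in *Zeb1 200H*, and 1621 in *Zeb1 200M*, and to 1489, 2151, and 2494 CPM in the breeding trial groups. Age and library protocol cannot be told apart in the lower share of miR-298-5p in the second cohort.

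**Figure D2:**
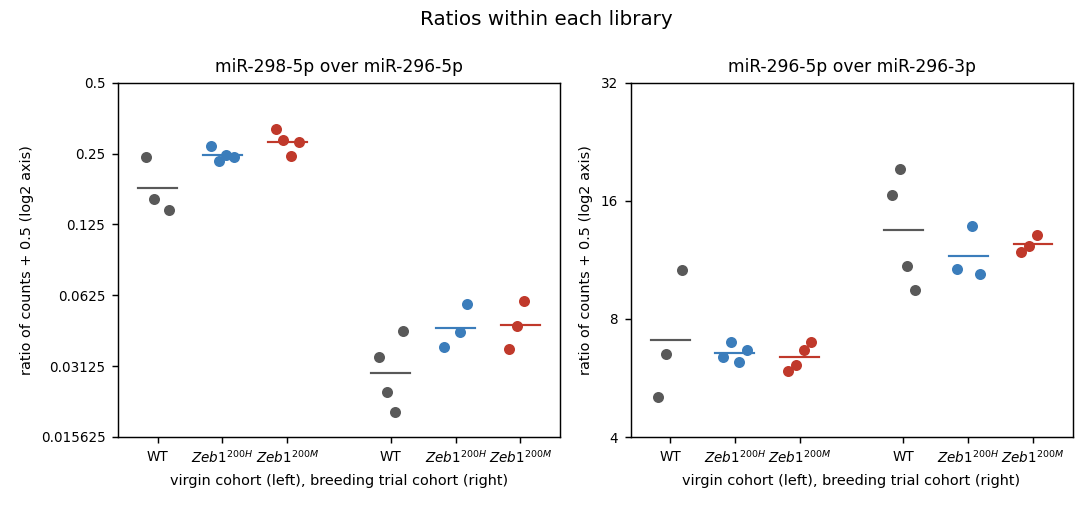
Each point is 1 library, with the ratio of miR-298-5p to miR-296-5p on the left and of miR-296-5p to miR-296-3p on the right (y axes, log2 scale, 0.5 added to each count), by genotype within cohort (x axis), and lines give geometric means. The left ratio is between 0.144 and 0.317 in virgin and between 0.0199 and 0.0592 in breeding trial libraries, and on the right WT is more scattered than the mutants in both cohorts.

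Across the 11 virgin libraries, the miRNAs most like miR-298-5p in log2 TMM-scaled CPM were miR-34b-3p (Pearson's r = 0.959), miR-328-3p (0.954), miR-341-3p (0.952), and the 2 rows of the neuronal miR-124-3p, miR-124-3p.2 (0.949) and miR-124-3p.1 (0.939), of 700 miRNAs compared. Those most like miR-296-5p were miR-297a/b/c-3p (0.944), miR-199b-5p (0.926), miR-344e-3p (0.922), miR-669e-5p (0.919), and miR-380-3p (0.916), and 0 of these 5 were among the 5 most like miR-298-5p. The names depended on WT replicate 1: without it, 2 of 5 stayed for each miRNA. miR-298-5p was then closest to miR-140-3p.2 (0.975), miR-384-5p (0.960), and miR-140-5p (0.959), with miR-341-3p and miR-328-3p kept, and miR-296-5p to miR-344e-3p (0.876), miR-532-3p (0.854), miR-669f-5p (0.822), miR-467d-5p (0.806), and miR-297a/b/c-3p (0.796). In the 10 breeding trial libraries, miR-296-5p was closest to miR-139-5p (0.831), miR-140-5p (0.827), miR-30a-3p (0.807), miR-124-3p (0.806), and miR-652-3p (0.781), of 281 compared. Among the arms themselves, miR-298-5p and miR-296-5p had r = 0.758 in the virgin and 0.854 in the breeding trial libraries, and miR-296-5p and miR-296-3p had r = 0.659 and 0.834. The libraries share genotype groups and scaling, so these values are descriptions.

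Markers of neuronal cells, which a dissected pituitary could include, were also higher in mutant libraries. Of 9 names in the list, 8 were rows of the virgin and 7 of the breeding trial tables, all were detected, and miR-124-3p was the most abundant. Their summed level in virgin WT replicates 1, 2, and 4 was 1893, 4462, and 5027 CPM, compared with 7813, 8207, 8154, and 8535 CPM in *Zeb1 200H* and 11836, 10513, 11691, and 8360 CPM in *Zeb1 200M*. In the breeding trial cohort the sums were 6367, 5924, 5613, and 6663 CPM in WT, 11745, 9528, and 11224 in *Zeb1 200H*, and 15833, 15903, and 15813 in *Zeb1 200M*. Every mutant library was above every WT library in both cohorts, in CPM and with TMM scaling. The endothelial and smooth muscle sum separated on both scales in the breeding trial cohort alone. The immune sum in both cohorts and the muscle sum in virgin mice separated in CPM but overlapped with TMM scaling, where 7 of 8 virgin and 5 of 6 breeding trial mutant libraries were above WT for the immune sum and 6 of 8 virgin ones for the muscle sum. Their part in the levels of miR-296 and miR-298 was not tested, and in whole pituitaries more cells of a type and more RNA per cell cannot be told apart.

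The pituitary label fits the endocrine markers, 3 of 3 detected, with miR-7a-5p the most abundant. They summed in virgin mice to 368951, 269425, and 273145 CPM in WT, 264186, 253180, 277444, and 264282 CPM in *Zeb1 200H*, and 231804, 256743, 235527, and 279906 CPM in *Zeb1 200M* libraries. After the breeding trial, sums of endocrine markers were 308200, 288001, 314366, and 290890 CPM in WT, 289256, 270783, and 263402 CPM in *Zeb1 200H*, and 253157, 260271, and 246486 CPM in *Zeb1 200M* libraries. In CPM some mutant libraries overlapped with WT in each cohort. With TMM scaling every mutant library was below every WT library in both cohorts. The lowest WT and highest mutant sums were then 278633.9 and 267803.5 in virgin mice, and 301540.5 and 282476.3 after the breeding trial. The part of these markers in the levels of miR-296 and miR-298 was not tested.

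Other lists stood beside miR-296 and miR-298 as follows, and no row of a list had a level of 0 over a whole cohort. Immune markers had 3 of 6 names in the virgin and 4 of 6 in the breeding trial tables, all detected, led by miR-142a-5p and miR-142-3p. Immune markers summed in virgin mice to 94.8 and 298.8 CPM in WT replicates 1 and 2 (and to more in replicate 4, which was below every mutant library in CPM, but with TMM scaling, at 336, above *Zeb1 200M* replicate 4 at 332), 362, 457, 476, and 406 CPM in *Zeb1 200H*, and 531, 380, 425, and 354 CPM in *Zeb1 200M* libraries. After the breeding trial, immune sums were 686, 948, 583, and 929 CPM in WT, 1127, 966, and 1165 CPM in *Zeb1 200H*, and 1700, 1417, and 1865 CPM in *Zeb1 200M* libraries. Endothelial and smooth muscle markers had 2 of 5 and 3 of 5 names in the tables, all detected, led by miR-145a-5p and miR-126a-3p. These summed in virgin mice to 1867, 2306, and 2395 CPM in WT, 3697, 3187, 2017, and 3527 CPM in *Zeb1 200H*, and 4412, 4159, 2020, and 3807 CPM in *Zeb1 200M* libraries. After the breeding trial, endothelial and smooth muscle sums were 7719, 8066, 8193, and 7957 CPM in WT, 10482, 10077, and 10942 CPM in *Zeb1 200H*, and 12331, 11716, and 10944 CPM in *Zeb1 200M* libraries. Blood markers had 3 of 5 names in both tables, all detected, led by miR-451a. Blood markers summed in virgin mice to 4954, 7182, and 9016 CPM in WT, 7863, 18024, 10303, and 9347 CPM in *Zeb1 200H*, and 9262, 8814, 8803, and 10462 CPM in *Zeb1 200M* libraries. After the breeding trial, blood sums were 5934, 8364, 5767, and 6006 CPM in WT, 6727, 8711, and 7402 CPM in *Zeb1 200H*, and 7198, 7980, and 10870 CPM in *Zeb1 200M* libraries. 

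Muscle markers had 3 of 4 names in both tables, all detected, led by miR-1a-3p. Muscle markers summed in virgin mice to 11.5, 13.1, and 10.3 CPM in WT, 25.9, 42.7, 15.1, and 21.8 CPM in *Zeb1 200H*, and 35.4, 41.5, 14.2, and 59.0 CPM in *Zeb1 200M* libraries. After the breeding trial, muscle sums were 6.47, 26.3, 23.8, and 36.5 CPM in WT, 18.2, 49.97, and 30.5 CPM in *Zeb1 200H*, and 34.2, 0, and 8.14 CPM in *Zeb1 200M* libraries. The epithelial miR-200 superfamily with miR-205-5p had 6 of 6 names detected, led by miR-141-3p in the virgin and miR-200c-3p in the breeding trial cohort. The epithelial list summed in virgin mice to 69896, 58382, and 58383 CPM in WT, 13618, 11934, 14538, and 12614 CPM in *Zeb1 200H*, and 7331, 7003, 6979, and 7522 CPM in *Zeb1 200M* libraries. After the breeding trial, epithelial sums were 66297, 65326, 66795, and 66032 CPM in WT, 12836, 12925, and 13737 CPM in *Zeb1 200H*, and 7483, 8793, and 8029 CPM in *Zeb1 200M* libraries. Leaving the miR-200 superfamily out of library totals changed the virgin mean of miR-298-5p from 111 to 118 CPM in WT, and in *Zeb1 200M* it gave 317 in place of 315.0 CPM. The part of these lists in the levels of miR-296 and miR-298 was not tested.

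Other imprinted miRNAs, set beside miR-296 and miR-298, were called in both directions, and miR-127-3p was the most abundant of them. In breeding trial *Zeb1 200M* against WT, 60 of 152 listed miRNAs of the *H19*/*Igf2*, *Mest*, *Dlk1*-*Dio3*, and *Sfmbt2* clusters passed the filter, 12 were called higher and 9 lower by edgeR, and their median log2 fold change was 0.0046, compared with 56 higher, 43 lower, and a median of 0.00035 over all 276 miRNAs tested. In *Zeb1 200H* against WT, 3 of 58 were called higher and 4 lower (median 0.045), compared with 13 higher and 19 lower of all 267 (median 0.0038). The higher calls in *Zeb1 200M* include miR-467d-5p, miR-669c-5p, and miR-669d-5p, and those in *Zeb1 200H* include miR-669d-5p. These needed mutant libraries to pass the filter. How miRNAs passed it was examined for the *Sfmbt2* cluster alone among these lists. Between the mutants edgeR called 0 of 61, compared with 3 of 274. In the virgin cohort, the median over 137 such miRNAs was -0.070 in *Zeb1 200M* and over 138 was -0.027 in *Zeb1 200H*, compared with -0.0025 and 0.0062 over all miRNAs. By cluster, both arms of miR-335, from *Mest*, fell in breeding trial *Zeb1 200M* (miR-335-5p by 0.71 on the log2 scale, SE 0.10, adjusted p = 7.71e-06 by edgeR, and miR-335-3p by 0.56, SE 0.12, adjusted p = 0.00093). Of the 8 *Rtl1* antisense miRNAs tested, which include the abundant miR-127-3p, 1 was higher (miR-127-5p, log2 fold change 0.36, SE 0.12, adjusted p = 0.0201 by edgeR) and 1 lower (miR-434-5p, -0.38, SE 0.13, adjusted p = 0.0245). In the rest of *Dlk1*-*Dio3*, where miR-154-5p was the most abundant, 7 of 46 were called higher and 6 lower, among them miR-544-3p (1.34, SE 0.19), miR-487b-3p (0.84, SE 0.16), miR-770-5p (0.94, SE 0.22), miR-540-5p (-1.09, SE 0.18), and miR-541-5p (-0.54, SE 0.10). Of the 54 *Sfmbt2* miRNAs listed, 4 passed the filter and were called higher (miR-467a-5p, miR-467d-5p, miR-669c-5p, and miR-669d-5p, log2 fold changes 0.67 to 1.58), while in *Zeb1 200H* 1 of 3 was called higher. The filter's 81.4 CPM had to be reached in 3 libraries. Each of the 4 reached it in 3 *Zeb1 200M* libraries, but miR-467d-5p did so in 0, miR-669d-5p in 1, and miR-669c-5p in 2 WT libraries. The entry of these miRNAs thus depended on their being high in mutants, whereas miR-467a-5p reached it in 4 WT libraries. Without the filter 3 of the 4 were called, and miR-669c-5p was not (0.94, SE 0.35, adjusted p = 0.0529 by edgeR). In *Zeb1 200H*, miR-669d-5p was also called without it (1.30, SE 0.39, adjusted p = 0.0218 by edgeR). In virgin mice, where 46 of the cluster passed the filter, 26 had a positive log2 fold change in *Zeb1 200M* against WT (median 0.051), compared with 49.7% of all 678. In *Zeb1 200H* against WT 27 of 47 did (median 0.18), compared with 50.4% of all 672, and between the mutants 9 of 46 did (median -0.098), compared with 47.6% of all 675. No miRNA of *H19*/*Igf2* passed the filter in either cohort.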

How the data were processed

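Reads had been trimmed of adapters and assigned to miRNAs by the authors through their first 19 nt (virgin) or 18 nt (breeding trial). The deposited values used here are raw counts per miRNA and library, and each of the 21 libraries had identical counts in both tables that hold it. The 42 per-sample columns of size-factor scaled values and the columns of the authors' own DESeq2 comparisons (fold changes and p-values) were not used.

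2 genotypes at a time were compared in edgeR 4.0.16 under R 4.3.3, with TMM scaling, the quasi-likelihood F test, and filterByExpr at its defaults (10 counts, 15 in total). Benjamini-Hochberg adjustment covered all miRNAs tested, with a threshold of 0.05, and the standard error came from the F statistic. The fit was tested on simulated data. Correlations used log2 TMM-scaled CPM with a prior count of 2 over miRNAs that passed the filter, and the 5 closest miRNAs are named. Of each list the most abundant miRNA and up to 5 called ones are named. Alternatives were DESeq2 1.42.0, RLE size factors, TMM computed with miR-200 family rows removed, no filter, 1 fit of the 3 genotypes, the replicate number as a block, limma 3.58.1 voom with sample weights, 1 added to counts in ratios, and leaving out each library. The contrast of both mutant genotypes with WT, with its own alternatives, the permutation p on the absolute difference, TMM scaling of marker sums, and the *Sfmbt2* values without a filter were chosen after seeing the data. The miRNAs and lists were chosen with earlier results of these data known.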

Additional observations from a re-analysis of the deposited data

Results flagged for a closer look

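Among 42 sets of values from groups of 4 libraries, 1 library stood far from the others of its group. Blood markers summed to 8364 CPM in breeding trial WT replicate 2, compared with 5934, 5767, and 6006 CPM in WT replicates 1, 3, and 4. Chance alone marks about 1 in 20 such sets. The same library held miR-296-5p at 1264 CPM and miR-298-5p at 26.3 CPM, within the range of the other WT libraries, whereas its miR-296-3p (61.4 CPM) was the lowest and its miR-298-3p (35.1 CPM) the highest of the 4.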

How the results depend on the processing

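In the breeding trial cohort, miR-296-5p was called higher in *Zeb1 200M* than in WT under all 7 other ways of fitting (log2 fold change 0.47 to 0.53, edgeR, limma or DESeq2 adjusted p 0.0032 to 0.0343), and leaving out 1 library gave 0.39 to 0.66, with the call lost only without *Zeb1 200M* replicate 2. In that comparison 1 of 2 arms tested was called (99 of 276 miRNAs), and the number was 2 of 3 in 1 fit of the 3 genotypes (98 of 284) and, with a library left out, ran from 0 of 2 (76 of 281, without *Zeb1 200M* replicate 2) to 2 of 3 (78 of 288, without *Zeb1 200M* replicate 1). The 2 in each case include miR-298-5p, which passed the filter through mutant libraries alone and is not read as called. With all libraries kept, miR-296-3p, counted among the arms tested, also needed mutant libraries to pass. In *Zeb1 200H* against WT, miR-296-5p was 0.33 to 0.38 under the other fits and 0.25 to 0.40 with a library left out, and was never called. Virgin log2 fold changes of miR-298-5p were 1.11 to 1.21 in *Zeb1 200M* and 0.94 to 1.03 in *Zeb1 200H* under the other fits, and 1.09 to 1.21 and 0.93 to 1.04 with a library left out. Virgin miR-296-5p and miR-298-3p leaned more on single WT libraries: in *Zeb1 200M*, miR-296-5p lay between 0.27 and 0.68 and miR-298-3p between 0.14 and 0.62, and in *Zeb1 200H* between 0.28 and 0.69 and between 0.45 and 0.92, lowest without WT replicate 1 and highest without WT replicate 4.

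Differences near 0 changed sign. Between breeding trial *Zeb1 200M* and *Zeb1 200H*, miR-296-3p (-0.0021) became 0.0058 with DESeq2 and lay between -0.12 and 0.22 with a library left out, and miR-298-5p (0.22) lay between -0.038 and 0.68. The log2 ratio of miR-296-5p to miR-296-3p lay between -0.34 and 0.0014 for mutants against WT and between -0.29 and 0.053 for *Zeb1 200M* against WT, and that of miR-298-5p to miR-296-5p between -0.14 and 0.20 between the mutants. None of these was called under any setting, and the cause was not tested. With a library left out, the virgin differences between the mutants lay between -0.055 and 0.036 for miR-296-5p, between -0.050 and 0.086 for miR-296-3p, between 0.10 and 0.22 for miR-298-5p, and between -0.46 and -0.22 for miR-298-3p.

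With the replicate number as a block, miR-296-5p stayed called in *Zeb1 200M* against WT (0.50, adjusted p = 0.0343 by edgeR), miR-296-3p between the mutants became 0.086, and no call of these miRNAs changed. Libraries of the same number did not deviate together in every pair (correlations of 0.079 to 0.19 in *Zeb1 200H* and WT, and -0.10 to 0.0043 in *Zeb1 200M* and WT of the breeding trial cohort), so the numbers were not taken as pairs. Depth limits the breeding trial values of miR-298-5p, miR-298-3p, and miR-296-3p, and 3 WT libraries, 1 of which stands apart, limit the virgin ones.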
